A study of Rattus norvegicus with 4 samples.

Results

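The spots described here were the 5% of each rat kidney section with the largest share of UMIs (unique molecular identifiers, which count captured RNA molecules) from 4 genes, Slc4a11, Slc14a1, Plet1 and Wnt7b. Among spots with at least 3000 UMIs, the 4 counts were summed and divided by the total of the spot, and the highest 5% of each section were kept as member spots. This gave 130 member spots of 2607 in the section from the rat given puromycin aminonucleoside (PAN), and 109 of 2180 in the section from the rat given PAN and then a low-salt fasting-mimicking diet (PAN_LS-FMD). It gave 128 of 2551 in the section from the healthy rat on the diet (healthy_LS-FMD), and 143 of 2863 in the section from the healthy rat (healthy). The 510 member spots thus came from 10201 spots with enough UMIs and 10383 spots in all.

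All rats were Sprague-Dawley, and each group was a single 10 µm frozen section on a 10x Visium slide, on which each barcoded spot captures RNA from a small patch of tissue. PAN is a toxin of podocytes, the filtering cells of the glomerulus. The PAN rat fed freely, the PAN_LS-FMD rat had 6 diet cycles, and both PAN kidneys were taken 6 weeks after treatment, which was 5 months after the injection. The healthy_LS-FMD rat had 1 cycle and 72 h of refeeding, and the healthy rat had neither PAN nor diet.

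The inner part of the kidney, the medulla, holds the loops of Henle, whose thin limbs run into it and turn back, together with collecting ducts and straight vessels called vasa recta. Its tissue fluid is rich in salt and urea, and its cells hold organic osmolytes such as sorbitol and betaine to balance that load. Of the selecting genes, Slc4a11 encodes a membrane transporter of the thin descending limb in mouse, and Slc14a1 the urea transporter UT-B of the descending vasa recta and of red blood cells. Plet1 encodes an epithelial surface protein, and Wnt7b a Wnt ligand made by collecting duct epithelium in mouse. A spot can hold several cells of different types, so a count belongs to a patch of tissue and not to a cell.

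With 1 section in a group, no difference between groups has a replicate check and no p-value is given. Values are CPM (the count of a gene scaled to a total of 1000000 UMIs) of the UMIs summed over the spots of a set. Brackets hold exact 95% Poisson intervals of a ratio of 2 counts, which cover counting error only. The sections held 24925280 (PAN), 34966981 (PAN_LS-FMD), 25331233 (healthy_LS-FMD) and 58569311 (healthy) UMIs, of which member spots held 960512, 1240101, 958266 and 2191916. A count of 3 UMIs, used as the floor for genes at 0, is worth 3.12, 2.42, 3.13 and 1.37 CPM in the member spots of the same 4 sections. Any pair of sections shared 1650 to 2279 spot barcodes, which are slide positions, and 0 to 9 barcodes among member spots. In such patches, fewer cells of a type and less RNA per cell cannot be told apart.

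The rule used the 4 selecting genes and the contrast of member spots with the other spots of a section, so this contrast is given as a description. The score of the lowest member spot was 268 CPM in PAN, 151.5 in PAN_LS-FMD, 1086.8 in healthy_LS-FMD and 244 in healthy. The highest spot left out scored 267.8, 151.1, 1079.9 and 241.9 CPM in the same order. The limit of the healthy_LS-FMD section lay above the median member of every other section, which was 357 CPM in PAN, 233.8 in PAN_LS-FMD and 421 in healthy, and above the scores of all but 4, 0 and 3 of their spots in the same order. A median member spot held 3 selecting UMIs in PAN and in PAN_LS-FMD, 10 in healthy_LS-FMD and 6 in healthy, so outside healthy_LS-FMD membership often turned on a few molecules. At least 3 of the 4 genes were present in 20 member spots in PAN, 4 in PAN_LS-FMD, 106 in healthy_LS-FMD and 55 in healthy.

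Slc4a11 had 148 CPM in member spots and 8.73 in other spots in PAN, and 40.3 and 3.71 in PAN_LS-FMD. It had 644 and 70.4 CPM in healthy_LS-FMD, and 124 and 5.66 in healthy. Slc14a1 had 70.8 CPM in member spots and 6.12 in other spots in PAN, 114 and 14.01 in healthy_LS-FMD, and 16.9 and 0.958 in healthy, while the PAN_LS-FMD member spots held 1 Slc14a1 UMI in all. Plet1 was closest to even across sections, at 153 CPM in the member spots of PAN, 199 in PAN_LS-FMD, 377 in healthy_LS-FMD and 281 in healthy. Wnt7b had 70.8, 16.1, 234 and 36.5 CPM in the member spots of the same sections.

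**Figure D1:**
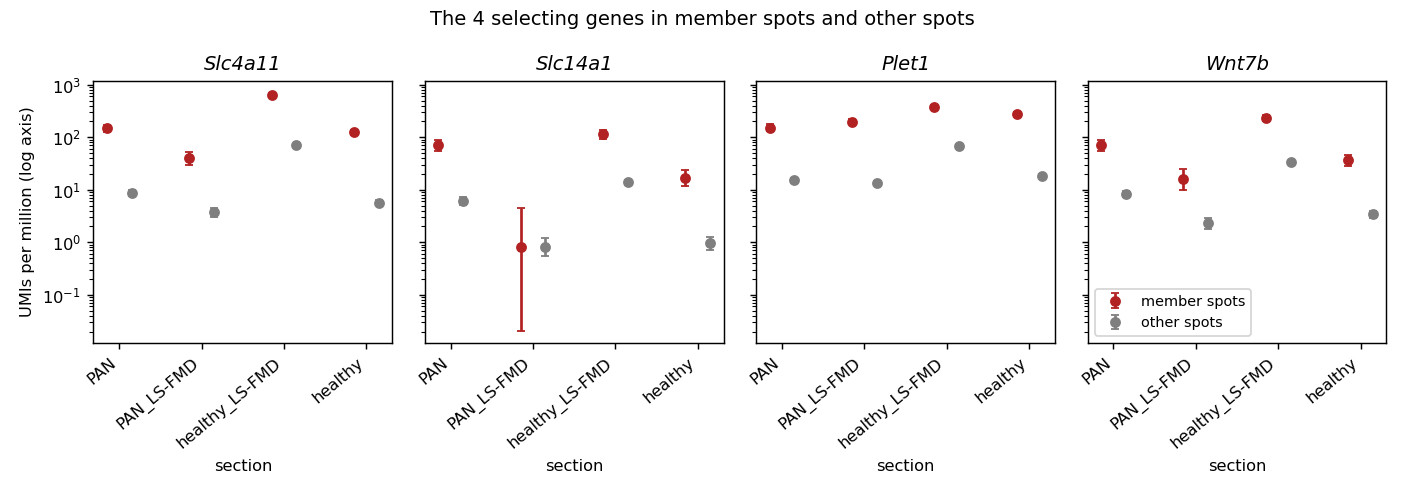
CPM (log axis) of the 4 selecting genes in member spots (red) and other spots (grey) of the 4 sections, with exact 95% Poisson bars. The healthy_LS-FMD section has the highest level of each gene in member spots, and Slc14a1 stands at 1 UMI in the PAN_LS-FMD members.

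The 4 genes made up the score in different proportions. Plet1 gave 34.6% of the selecting UMIs of member spots in PAN, 77.7% in PAN_LS-FMD, 27.5% in healthy_LS-FMD and 61.3% in healthy. Plet1 was the only selecting gene present in 17 member spots in PAN (13.1%), 60 in PAN_LS-FMD (55.0%), none in healthy_LS-FMD and 38 in healthy (26.6%). The other 49 member spots of PAN_LS-FMD held at least 1 UMI of another selecting gene, and 38 of them held Slc4a11.

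Ranking by 3 genes and reading the one left out gave a measure that the ranking had not used. Slc4a11 was then higher in the top 5% of spots in each section: 75.9 against 11.7 CPM in PAN (6.50-fold [4.94 to 8.45]), 14.1 against 4.66 in PAN_LS-FMD (3.02-fold [1.74 to 4.93]), 360 against 82.0 in healthy_LS-FMD (4.39-fold [3.90 to 4.93]) and 93.5 against 6.81 in healthy (13.7-fold [11.5 to 16.3]). Plet1 left out was 2.48-fold higher in PAN, 2.85-fold in PAN_LS-FMD, 3.75-fold in healthy_LS-FMD and 7.40-fold in healthy. Wnt7b left out was 3.33-fold, 3.08-fold, 4.23-fold and 8.45-fold higher in the same order. Slc14a1 left out was 2.66-fold higher in PAN, 3.59-fold in healthy_LS-FMD and 13.99-fold in healthy, and had no UMI in the top spots of PAN_LS-FMD, against 0.860 CPM in the rest of that section. So each selecting gene was higher where the summed score of the other 3 was high, in every section except Slc14a1 in PAN_LS-FMD. Because the other 3 were summed, this does not show that each gene lay with each other one. With Plet1 left out, the top spots shared 60.8% with the member spots in PAN, 42.2% in PAN_LS-FMD, 78.1% in healthy_LS-FMD and 62.2% in healthy.

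The label of these spots, deep medulla thin limb, was checked against genes outside the rule. Of 13 thin limb genes, 2 of 8 measured (at least 50 UMIs over both sets) were at least 2-fold higher in member spots in PAN, 0 of 6 in PAN_LS-FMD, 4 of 7 in healthy_LS-FMD and 4 of 8 in healthy, and none was 2-fold lower. Over all measured genes, the share 2-fold higher was 3.42% of 10800 in PAN, 7.97% of 10546 in PAN_LS-FMD, 8.83% of 10361 in healthy_LS-FMD and 11.0% of 11122 in healthy. The share 2-fold lower was 4.16%, 3.26%, 8.73% and 4.15% in the same order. The median log2 fold of the thin limb genes was 0.57 in PAN, −0.12 in PAN_LS-FMD, 1.01 in healthy_LS-FMD and 1.00 in healthy, beside medians of all genes of 0.08, 0.14, 0.19 and 0.21. These values, with the tubule lists below, leaned towards the medulla in the healthy_LS-FMD member spots, and in some of those of PAN and healthy. They rest on RNA only, as positions in the tissue were not used. They do not set the thin limb apart from the thick limb, whose genes were also higher in these member spots (below). In PAN the lean was weaker, and 0 of 8 measured organic osmolyte genes were 2-fold higher there. In PAN_LS-FMD the label was not borne out, and the spots there are named by the rule.

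Fst, which encodes follistatin, a secreted inhibitor of activin, was higher in member spots than in other spots in 3 sections. Fst had 14.1 CPM in member spots and 0.426 in other spots in healthy (33.2-fold [18.9 to 59.1]), 20.8 and 4.13 in PAN (5.04-fold [2.95 to 8.21]) and 27.1 and 7.83 in healthy_LS-FMD (3.47-fold [2.21 to 5.24]). It had no UMI in the member spots of PAN_LS-FMD, against 0.208 CPM in its other spots.

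Jag1, a Notch ligand, had 76.0 and 38.0 CPM in member and other spots in PAN, 28.2 and 28.0 in PAN_LS-FMD, 93.9 and 46.7 in healthy_LS-FMD and 46.1 and 22.9 in healthy. Smoc2, a secreted matrix-associated protein, had 123 and 58.8 CPM in PAN, 17.7 and 18.2 in PAN_LS-FMD, 76.2 and 37.5 in healthy_LS-FMD and 45.2 and 17.8 in healthy. Both genes were thus about even between the sets in PAN_LS-FMD and higher in member spots in the other 3 sections. Aqp1, the water channel of the thin descending limb and also of the proximal tubule, differed less, at 1578 and 1197 CPM in PAN, 2008 and 2316 in PAN_LS-FMD, 5036 and 3203 in healthy_LS-FMD and 2266 and 1612 in healthy. Slc14a2, which encodes the UT-A urea transporters, had 10 UMIs in the PAN member spots (10.4 against 0.548 CPM, 19.0-fold [7.45 to 46.9]) and none in the member spots of the other sections. Epha7 and Prox1 had no UMI in the member spots of any section, and Sptssb and Bst1 had 2 UMIs each, in healthy_LS-FMD only.

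Some organic osmolyte genes were at least 2-fold higher in the member spots of healthy_LS-FMD and healthy. The summed list had 1894 CPM in member spots and 1220 in other spots in healthy_LS-FMD, but 1196 and 1239 in healthy. It had 1724 and 1434 CPM in PAN_LS-FMD and 1262 and 1265 in PAN, so the sum was not higher in member spots in healthy or PAN. Of 8 measured, 0 were at least 2-fold higher and 1 lower in PAN, 0 and 0 in PAN_LS-FMD, 4 and 1 in healthy_LS-FMD, and 3 and 0 in healthy, with median log2 folds of 0.03, 0.39, 0.67 and 0.47. Slc6a12, the betaine transporter, had 277 CPM in member spots and 63.2 in other spots in healthy_LS-FMD (4.38-fold [3.83 to 4.99]), and 22.8 and 3.39 in healthy (6.73-fold [4.83 to 9.23]). It had 10.4 and 6.71 CPM in PAN and, from 2 UMIs, 1.61 and 2.28 in PAN_LS-FMD. After each spot was thinned to 3000 UMIs, Slc6a12 was present in 1.54% of member spots in PAN, 0.917% in PAN_LS-FMD, 51.6% in healthy_LS-FMD and 4.196% in healthy. The share was 2.14%, 0.917%, 15.7% and 0.846% of other spots in the same order, and 3.08%, 1.84%, 14.8% and 2.80% of the spots highest in thick limb genes, a set from another segment. Shares in the member spots of PAN and PAN_LS-FMD were at or below those of other spots and of thick limb spots. The thick limb spots lay above other spots in PAN, PAN_LS-FMD and healthy, so they do not give a background level. In healthy the member share, from 6 spots, was higher than in both sets. Its interval (1.555% to 8.909%) held the share of the thick limb spots, so these were not told apart. Without thinning the shares in member spots were 6.92%, 1.83%, 77.3% and 27.3%.

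Akr1b1, aldose reductase, which makes sorbitol, had 110 and 36.7 CPM in member and other spots in healthy_LS-FMD (2.98-fold), 64.3 and 31.2 in healthy (2.06-fold), 60.5 and 31.8 in PAN_LS-FMD (1.90-fold) and 115 and 95.7 in PAN (1.197-fold). Sord, sorbitol dehydrogenase, which breaks sorbitol down, lay the other way in 3 sections, at 123 and 411 CPM in healthy_LS-FMD, 379 and 633 in healthy and 206 and 414 in PAN, but at 793 and 722 in PAN_LS-FMD. Nfat5, the transcription factor that responds to high tonicity, had 343 and 220 CPM in PAN, 119 and 87.0 in PAN_LS-FMD, 432 and 181 in healthy_LS-FMD and 190 and 72.96 in healthy. Nfat5 was thus higher in member spots in all 4 sections, by at least 2-fold in healthy_LS-FMD and healthy.

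The patches also held RNA of neighbouring tubules. Of the collecting duct genes, 0 of 10 measured were 2-fold higher in member spots in PAN, 2 of 10 in PAN_LS-FMD, 1 of 12 in healthy_LS-FMD and 4 of 12 in healthy. In healthy 1 of the 12 was 2-fold lower. The share in healthy_LS-FMD was close to the 8.83% of all genes there. Aqp2, the vasopressin-regulated water channel, had 485 and 255 CPM in member and other spots in PAN, 478 and 394 in PAN_LS-FMD, 1621 and 920 in healthy_LS-FMD and 758 and 319 in healthy. Aqp4, a water channel of the basolateral side, had 30.6 and 7.10 CPM in healthy (4.31-fold [3.28 to 5.59]) and 76.2 and 37.4 in healthy_LS-FMD (2.04-fold). Slc26a4, pendrin of cortical intercalated cells, was 11.8-fold lower in the member spots of healthy_LS-FMD, at 7.31 against 86.5 CPM, and was higher in those of PAN_LS-FMD, at 82.3 against 55.9 CPM.

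Thick ascending limb genes had median log2 folds of 0.79 in PAN, 0.00 in PAN_LS-FMD, 0.85 in healthy_LS-FMD and 1.07 in healthy, and 1, 0, 3 and 5 of 8 were 2-fold higher. Slc12a1, the salt cotransporter of this limb, had 940 and 489 CPM in PAN, 404 and 423 in PAN_LS-FMD, 2737 and 1266 in healthy_LS-FMD and 1308 and 479 in healthy. Proximal tubule genes lay lower: 9 of 12 were 2-fold lower in PAN, 2 in PAN_LS-FMD, 12 in healthy_LS-FMD and 6 in healthy, with median log2 folds of −1.30, −0.18, −2.03 and −0.99. Slc34a1, the phosphate transporter of the proximal tubule, had 913 and 2182 CPM in member and other spots in PAN, 775 and 2642 in healthy_LS-FMD and 1861 and 3513 in healthy. In PAN_LS-FMD it had 4092 and 3731 CPM, so the member spots there held as much of this cortical transcript as the rest of the section. The 12 proximal genes together went the other way there, at 19130 CPM in member spots and 30235 in other spots.

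Genes of the urothelium, which lines the renal pelvis next to the tip of the medulla, summed to 34.4 CPM in the member spots of healthy_LS-FMD against 5.27 in its other spots. The sums were 4.16 against 2.53 CPM in PAN, 0 against 1.45 in PAN_LS-FMD and 6.39 against 1.60 in healthy. Upk1a, an uroplakin of the urothelial surface, gave 17 of the UMIs in healthy_LS-FMD (17.7 against 3.91 CPM, 4.53-fold), 3 in PAN, 0 in PAN_LS-FMD and 12 in healthy. Krt5 and Upk3b, also markers of urothelium, had no UMI in member spots.

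**Figure D2:**
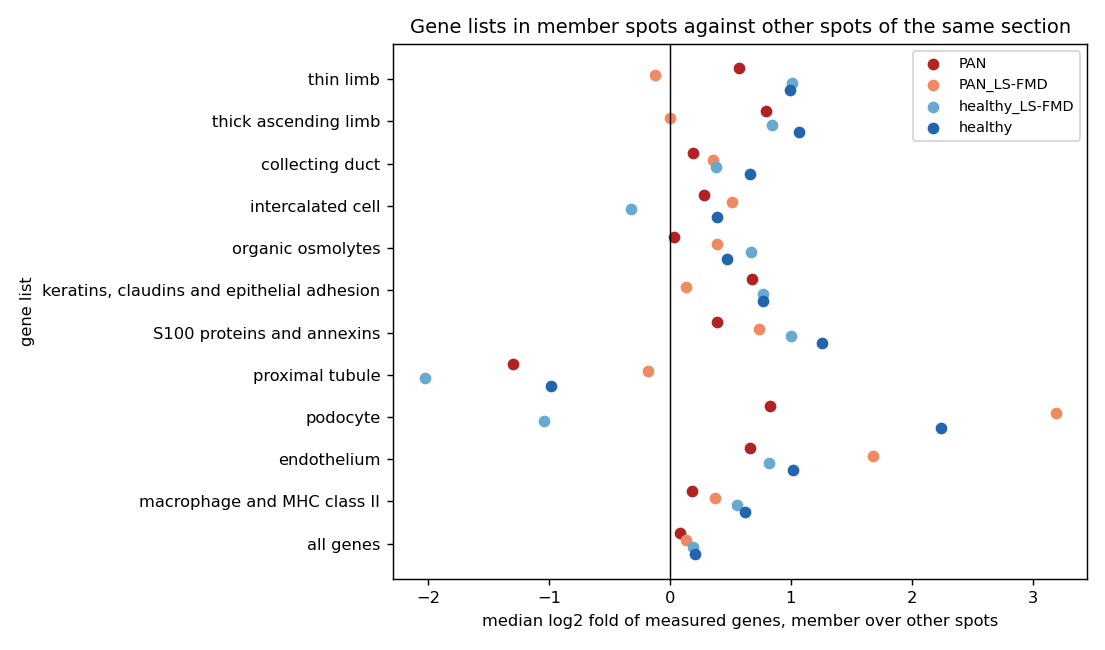
Median log2 fold of member over other spots for the measured genes of each list and for all genes, in the 4 sections. Thin limb and thick ascending limb lists lie to the right of all genes in PAN, healthy_LS-FMD and healthy and near 0 in PAN_LS-FMD, where the podocyte list stands at 3.19.

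Podocyte genes, which belong to the cortex, were high in the member spots of PAN_LS-FMD and healthy. Nphs1, nephrin of the filtration slit, had 235 CPM in member spots and 25.9 in other spots of PAN_LS-FMD (9.06-fold), 70.3 and 14.4 in healthy (4.87-fold) and 16.7 and 9.11 in PAN (1.83-fold). In healthy_LS-FMD it had 10.4 and 29.3 CPM, which is 2.81-fold lower in member spots. Of 4 measured podocyte genes, 1 was 2-fold higher in PAN, 4 in PAN_LS-FMD and 4 in healthy, and 2 were 2-fold lower in healthy_LS-FMD. The 5 genes of the list summed to 123 CPM in member spots and 70.03 in other spots in PAN, 1094 and 138 in PAN_LS-FMD, 148 and 166 in healthy_LS-FMD and 399 and 106 in healthy. Synpo, another podocyte marker, had no UMI in the member spots of any section.

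The podocyte signal was uneven among member spots. In PAN_LS-FMD the median spot had 559 CPM of the summed podocyte genes among members and 84.9 among other spots. The summed podocyte genes passed 1000 CPM in 3 member spots in PAN (2.31%), 46 in PAN_LS-FMD (42.2%), 1 in healthy_LS-FMD (0.781%) and 23 in healthy (16.1%), against 0.727%, 2.32%, 3.30% and 1.69% of other spots. Among spots with Plet1 as the only selecting gene they passed 1000 CPM in 2 of 17 in PAN, 35 of 60 in PAN_LS-FMD and 22 of 38 in healthy. After thinning to 3000 UMIs, Nphs1 was present in 2.31% of member spots in PAN, 38.5% in PAN_LS-FMD, 1.56% in healthy_LS-FMD and 15.4% in healthy. The thinned share in spots highest in thick limb genes, which should lack it, was 0.769%, 2.75%, 4.69% and 3.497%, and the unthinned shares in member spots were 5.38%, 59.6%, 4.69% and 27.3%. The thinned share in other spots was 2.34%, 7.73%, 8.42% and 4.34%. The thick limb spots were mixed patches, with Nphs1 in 1.54%, 11.0%, 10.9% and 10.5% of them without thinning. The thinned member share of healthy_LS-FMD was above neither set, and that of PAN, from 3 spots, was about that of other spots. Those of PAN_LS-FMD and healthy lay above both sets.

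In healthy, Nphs1 had 228 CPM in the 38 Plet1-only spots and 17.6 in the other 105 member spots, while Slc12a1 had 485 and 1582, and Cldn23 18.2 and 62.7. In PAN_LS-FMD, Nphs1 had 311 CPM in the 60 Plet1-only spots and 141 in the other 49, while Slc12a1 had 362 and 457. In PAN, Nphs1 had 8 UMIs in each set, which is 76.4 CPM in the 17 Plet1-only spots and 9.35 in the other 113, while Slc12a1 had 1088 and 922. The Plet1-only spots of healthy were thus richer in podocyte RNA and poorer in thick limb RNA than the other member spots, and the PAN_LS-FMD spots were rich in podocyte RNA in both sets. Fst had no UMI in the Plet1-only spots of healthy, which allows up to 6.73 CPM (exact 95% Poisson limit), against 18.9 CPM in the other member spots. In the Plet1-only spots of PAN, also at 0, that limit was 35.2 CPM, so no difference from the other member spots (23.4 CPM) was detectable. Whether Plet1 was made by podocytes or by other cells of these patches was not tested.

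**Figure D3:**
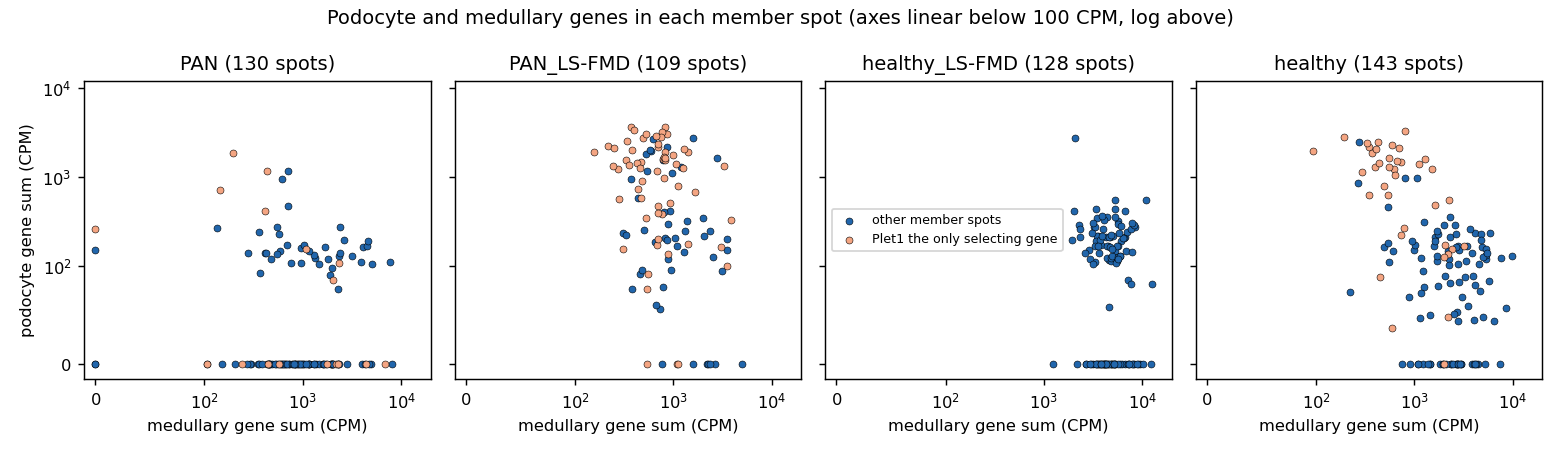
Each point is a member spot, with the sum of Slc12a1, Aqp2, Fxyd4 and Slc6a12 (CPM) on the x axis, titled medullary gene sum. The y axis has 5 summed podocyte genes (CPM, both axes linear below 100 and log above). The x axis is not a measure of place: in healthy_LS-FMD the sum passed 1000 CPM in 100% of member spots and 81.7% of other spots. Spots with Plet1 as the only selecting gene are salmon and all other member spots blue. The healthy_LS-FMD spots run from 1240 to 12475 CPM on the x axis with 1 above 1000 CPM of podocyte genes, and PAN_LS-FMD has 46 above it.

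The rank within a section gave the same picture in finer steps. In healthy, Nphs1 had 4.95 CPM (2 UMIs) in the top 1% of spots, 85.0 in ranks 1 to 5%, 76.0 in 5 to 10%, 25.4 in 10 to 20% and 10.2 in the rest. The podocyte RNA of healthy thus lay in the lower ranks of the members and just outside them, and the top 1% held little. Cldn23, a tight junction claudin, had 121, 35.8, 7.94, 2.82 and 1.97 CPM over the same bands of healthy, and Spp1, osteopontin, had 5827, 1989, 690 and 308 CPM in the first 4 bands and 211 in the rest. In PAN_LS-FMD, Nphs1 was already highest in the top 1%, at 331 CPM, and had 214, 95.1, 58.8 and 19.3 in the bands that follow. In healthy_LS-FMD, Nphs1 had no UMI in the top 1%, and 12.7 CPM in ranks 1 to 5% against 29.03 in the last band. Spp1 in that section had 5764, 5242, 3945 and 3642 CPM in the first 4 bands and 771 in the rest, so its level stayed high past the member limit.

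**Figure D4:**
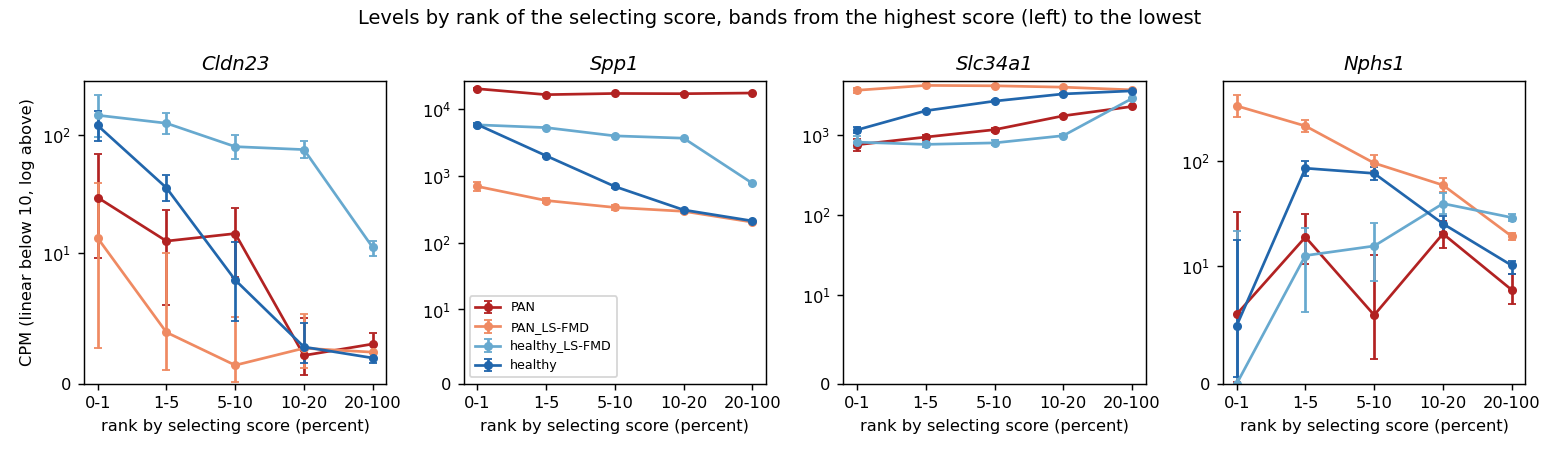
CPM of Cldn23, Spp1, Slc34a1 and Nphs1 (linear below 10, log above) over bands of the score rank in each section, with exact 95% Poisson bars. Cldn23 falls with rank in healthy and healthy_LS-FMD, and Nphs1 is highest in the top 1% in PAN_LS-FMD and lowest there in healthy.

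Endothelial genes also differed by section. Of 9 measured, 0 were 2-fold higher in member spots in PAN, 8 in PAN_LS-FMD, 3 in healthy_LS-FMD and 5 in healthy. Kdr, a receptor for VEGF that is high in glomerular capillaries, had 219 and 64.9 CPM in member and other spots of PAN_LS-FMD, 123 and 60.7 in healthy, 68.7 and 57.8 in PAN and 85.6 and 87.0 in healthy_LS-FMD. Plvap, a protein of fenestrated and vasa recta endothelium, had 701 and 284 CPM in healthy_LS-FMD (2.47-fold), 448 and 237 in healthy, 258 and 180.2 in PAN and 202 and 174 in PAN_LS-FMD. The endothelial gene furthest above other spots thus differed, with Plvap in healthy_LS-FMD and Cldn5, a tight junction claudin, in PAN_LS-FMD (198 and 29.2 CPM) and healthy (124 and 25.1 CPM).

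Across the 4 sections together, 28 of 9945 genes (0.282%) were at least 2-fold higher in member spots in every section and 10 (0.101%) at least 2-fold lower in every section, the selecting genes left out. The genes named here were chosen by the lowest interval bound over the sections, and some of them fall short of 2-fold in 1 or more. Ugt8, which makes galactosylceramide, had 24.0 and 6.45 CPM in member and other spots in PAN, 28.2 and 5.79 in PAN_LS-FMD, 73.05 and 20.1 in healthy_LS-FMD and 34.7 and 6.51 in healthy. Akap12, a scaffold of protein kinase A, had 147 and 56.2 CPM in PAN, 69.3 and 28.4 in PAN_LS-FMD, 135 and 39.5 in healthy_LS-FMD and 55.2 and 14.8 in healthy. Tinagl1, a matrix protein, had 169 and 75.6 CPM in PAN, 91.9 and 33.5 in PAN_LS-FMD, 202 and 64.8 in healthy_LS-FMD and 132 and 33.9 in healthy. These 3 genes had at least 2-fold more RNA in member spots also in PAN_LS-FMD, where the thin limb genes were about even.

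Of the other named genes, Bcam, a laminin receptor, Tm4sf1, a surface protein of endothelium, Hs3st3b1, a heparan sulfate sulfotransferase, Cdkn1c, a cell cycle inhibitor also made by podocytes, and Sapcd1 were 2-fold higher in all 4 sections. Cdkn1c had 114 and 12.2 CPM in member and other spots of PAN_LS-FMD, 69.9 and 24.9 in healthy_LS-FMD, 40.1 and 7.65 in healthy and 26.03 and 10.2 in PAN. S100a6, a calcium-binding protein, was 1.87-fold higher in PAN (1219 and 652 CPM) and past 2-fold in PAN_LS-FMD (522 and 106), healthy_LS-FMD (1466 and 369) and healthy (806 and 125). Piezo1, a pressure-gated channel, Epn3, an endocytic adaptor, Tspan8, Id3, Sh2d3c and Ssbp4 were likewise higher in every section and under 2-fold in 1 or more. The named genes lower in member spots, none of them 2-fold lower in all 4 sections, included Slc22a2, an organic cation transporter of the proximal tubule, with 126 and 248 CPM in PAN, 473 and 868 in PAN_LS-FMD, 306 and 1059 in healthy_LS-FMD and 427 and 826 in healthy. The others were Slc27a2, Slc3a1, Miox, Oat, Aldh6a1, Cryz, Ggct, Gsta5 and Ftl1.

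Keratin, claudin and adhesion genes were 2-fold higher in 2 of 11 in PAN, 0 in PAN_LS-FMD, 4 in healthy_LS-FMD and 5 in healthy. Krt18, a keratin of simple epithelia, had 78.1 and 31.1 CPM in member and other spots in PAN, 17.7 and 13.8 in PAN_LS-FMD, 100.2 and 41.8 in healthy_LS-FMD and 53.8 and 18.9 in healthy. Cldn4, a claudin of the distal nephron, had 91.6 and 54.3 CPM in PAN, 13.7 and 14.0 in PAN_LS-FMD, 116 and 38.8 in healthy_LS-FMD and 62.1 and 15.4 in healthy. Both genes were thus about even between the sets in PAN_LS-FMD and higher in member spots in the other 3 sections, as Jag1 and Smoc2 were. Spp1 was even between the sets in PAN, at 16951 and 17207 CPM, and higher in member spots in PAN_LS-FMD (474 and 216), healthy_LS-FMD (5334 and 1128) and healthy (2697 and 241, 11.2-fold [10.9 to 11.6]). Ptgs1, cyclooxygenase 1 of prostaglandin synthesis, had 48.9 and 26.5 CPM in PAN, 17.7 and 6.82 in PAN_LS-FMD, 87.7 and 32.5 in healthy_LS-FMD and 30.1 and 8.23 in healthy. Cxcl9, an interferon-induced chemokine, was highest in the member spots of healthy (26.9 and 2.43 CPM, 11.1-fold), with 9, 4 and 2 UMIs in those of PAN, PAN_LS-FMD and healthy_LS-FMD.

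The genes that led each section overlapped in part. Cldn23, Spp1, Smim5, Ypel4 and S100a6 were among the 10 leading genes of both healthy_LS-FMD and healthy, and Fst among those of both PAN and healthy. In PAN they included Apcdd1, a Wnt inhibitor (43.7 and 9.74 CPM), Krt17 (12.5 and 1.69), Fst and Tmem207. In PAN_LS-FMD they were led by podocyte-related genes, among them Nphs1, Wt1, Clic3, Ddn (113 and 11.6) and Foxd1 (53.2 and 4.60), with Hfe2, also called hemojuvelin (25.0 and 1.54). In healthy_LS-FMD they included Sprr1a, a cornified envelope protein (26.1 and 1.61 CPM), Cldn23 (130.4 and 19.1), Spp1, Slc6a12, Smim5 (167 and 35.4) and Slco4a1, an organic anion transporter (123 and 26.8). In healthy they included Fst, Cldn23 (51.6 and 2.31 CPM, 22.4-fold [17.2 to 29.0]), Spp1, Sapcd1 (24.6 and 2.06), Smim5 (33.3 and 3.88) and Fabp4, a fatty acid binding protein (134 and 19.0).

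The member spots of different sections were then set against each other, each comparison being 1 section against 1 section, and counted at 2-fold among genes with at least 50 UMIs. PAN_LS-FMD, PAN and healthy each enter more than 1 comparison, so the comparisons share sections. The matrix of the healthy section came from Space Ranger 2.0.1 and the other 3 from 1.2.1, so in comparisons with healthy the software version and the group cannot be told apart. The member spots also differ in make-up between sections, as given above, and the part of podocyte or proximal RNA in each difference was not tested beyond the values beside it.

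PAN member spots, set against healthy member spots, had more RNA of immune, matrix and injury genes and less of cortical and collecting duct genes. In all, 951 of 7326 genes (13.0%) were at least 2-fold higher and 422 (5.76%) lower in PAN. Among the other spots of the 2 sections, 18.2% of the same genes were higher and 4.55% lower. With median-of-ratios scaling, which took a log2 shift of 0.31 off these folds, the counts were 518 higher and 785 lower. The median log2 fold of all genes was 0.27.

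Of 13 tubular injury genes, 11 were higher and 1 lower in PAN (median log2 fold 2.43), and Havcr1, the injury marker KIM-1, had 123 CPM in PAN and 3.19 in healthy (38.5-fold [18.1 to 97.8]). Clu, clusterin, had 4002 and 313 CPM (12.8-fold [11.8 to 13.9]), and Lcn2, the iron-carrier binding protein NGAL, had 307 and 38.3 (8.01-fold). The other spots held a like difference for Clu (11.8-fold), and larger for Lcn2 (25.7-fold). Of 14 matrix genes 12 were higher (median 1.97), with Col3a1 at 813 CPM in PAN and 75.7 in healthy and Col1a1 at 544 and 48.8. Of 17 macrophage and MHC class II genes all were higher (median 2.22), with RT1-Db1, which presents antigen, at 1313 and 187 CPM and Mrc1, a macrophage mannose receptor, at 62.5 and 2.28. The chemokine Ccl21 had 1188 and 20.1 CPM (59.2-fold [43.8 to 81.9]), and Ighm, the IgM heavy chain, 2944 and 27.8 (106-fold [82.1 to 139]). The cytokine gene Il24 had 51 UMIs in PAN and 1 in healthy (116-fold [19.97 to 4686]). In the other spots the same lists had medians of 2.41 (injury), 3.01 (matrix) and 2.62 (macrophage and MHC class II), so none of these differences was limited to member spots. Immunoglobulin, RT1 and Klk1c genes have near-identical copies, among which reads may be split, and their counts are uncertain.

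Thin limb, collecting duct and thick limb genes differed less. Of 7 thin limb genes, 2 were higher and none lower in PAN (median 0.59), with Smoc2 at 123 CPM in PAN and 45.2 in healthy and Bcl6, a transcriptional repressor, at 76.0 and 26.5. Of 9 collecting duct genes 3 were lower (median −0.74), with Aqp3 at 56.2 CPM in PAN and 246 in healthy (4.38-fold lower [3.31 to 5.91]), Aqp4 at 10.4 and 30.6, and Fxyd4, a subunit of the sodium pump in the collecting duct, at 115 and 332. None of 8 thick limb genes passed 2-fold (median −0.37). Slc6a12 had 10.4 CPM in PAN and 22.8 in healthy (2.19-fold lower [1.10 to 4.85]), while in the other spots it was 1.98-fold higher in PAN.

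All 4 podocyte genes measured were lower in PAN member spots (median −1.72, other spots −0.51), with Clic3, a chloride channel protein high in podocytes, at 17.7 CPM in PAN and 133 in healthy. Without the Plet1-only spots, a setting added after the data were seen, 2 were measured and 1 was lower (median −1.17). Without podocyte spots, also added, the 1 measured was not lower. Podocyte spots were picked by podocyte genes, Clic3 among them, so leaving them out takes away RNA of the list being read. Here and in the comparisons below, podocyte counts without these spots therefore do not check the podocyte difference. Of 10 proximal genes 6 were lower (median −1.30, other spots −0.95). The genes with the largest differences downwards included Mmp9, a matrix protease, at 0 UMIs in PAN and 42.9 CPM in healthy (at least 13.7-fold lower at the floor of 3 UMIs), Slc7a13, an amino acid transporter of the proximal tubule (171 and 1387), and Kap, the kidney androgen-regulated protein (1419 and 8260).

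PAN_LS-FMD member spots, set against PAN member spots, had less RNA of injury, matrix and immune genes and more of podocyte and proximal genes. Of 6617 genes, 479 (7.24%) were higher and 738 (11.2%) lower, and in the other spots 4.05% were higher and 13.2% lower. Median-of-ratios scaling, a log2 shift of −0.25, gave 686 higher and 477 lower. The median of all genes was −0.19.

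Spp1 had 474 CPM in PAN_LS-FMD and 16951 in PAN (35.8-fold lower [32.9 to 38.9]), and in the other spots it was 79.6-fold lower. Of 13 injury genes 12 were lower (median −2.46, other spots −3.15), with Havcr1 at 9.68 CPM in PAN_LS-FMD and 123 in PAN and Lcn2 at 22.6 and 307. Of 12 matrix genes 10 were lower (median −2.07), with Col1a1 at 57.3 and 544 CPM. In the macrophage and MHC class II list 16 of 17 lay lower and 1 higher (median −1.80). Ccl21 had 80.6 and 1188 CPM, and Il24 had 0 UMIs in PAN_LS-FMD against 53.1 CPM in PAN (at least 22.0-fold lower). These differences stood in member and other spots alike.

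The medians of the thin limb and thick limb lists lay further from 0 in member spots than in the rest of the 2 sections. Of 4 thin limb genes 2 were lower (median −1.12, other spots 0.02), with Smoc2 at 17.7 CPM in PAN_LS-FMD and 123 in PAN (6.92-fold lower [4.37 to 11.5]) and Jag1 at 28.2 and 76.0. The summed list was not lower, at 2139 CPM in PAN_LS-FMD and 1929 in PAN, most of it Aqp1 (2008 and 1578 CPM), which is also a proximal gene. Of 8 thick limb genes 4 were lower (median −0.95, other spots 0.04), with Slc12a1 at 404 and 940 CPM and Cldn19, a claudin of the thick limb, at 31.4 and 196. All 4 podocyte genes were higher (median 3.60, other spots 1.35), with Nphs1 at 235 and 16.7 CPM and Clic3 at 334 and 17.7. Without podocyte spots 1 was measured, and it was higher. Of 11 proximal genes 10 were higher (median 2.17, other spots 0.77). Klk1c9, a kallikrein, had 4458 CPM in PAN_LS-FMD and 142 in PAN (31.5-fold [26.6 to 37.6], 7.75-fold in other spots). The podocyte and proximal medians, like those of the limb lists, were thus further from 0 in member spots than in other spots.

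PAN_LS-FMD member spots, set against healthy member spots, had less thick limb and epithelial adhesion RNA and more podocyte, proximal and distal convoluted tubule RNA. Of 7249 genes, 285 (3.93%) were higher and 224 (3.09%) lower, while in the other spots of the same sections 0.607% were higher and 0.662% lower. Median-of-ratios scaling gave 231 higher and 250 lower. The median of all genes was 0.08.

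Of 8 thick limb genes 5 were lower (median −1.13, other spots −0.09), and Slc12a1 had 404 CPM in PAN_LS-FMD and 1308 in healthy (3.24-fold lower [2.94 to 3.57]). Of 6 thin limb genes 1 was lower, Smoc2 (17.7 and 45.2 CPM). Of 11 keratin, claudin and adhesion genes 5 were lower (median −0.73), with Cldn4 at 13.7 and 62.1 CPM. Cldn23 had 5.64 and 51.6 CPM (9.13-fold lower), Spp1 474 and 2697 (5.69-fold lower [5.22 to 6.20]), and Fabp3, a fatty acid binding protein, 275 and 1307 (4.75-fold lower). In the other spots Spp1 was 1.11-fold and Fabp3 1.71-fold lower. Slc6a12 had 2 UMIs in PAN_LS-FMD and 50 in healthy (14.1-fold lower [3.72 to 120.0]).

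All 4 podocyte genes were higher (median 1.54, other spots 0.58), with Wt1, a transcription factor of podocytes, at 152 CPM in PAN_LS-FMD and 37.4 in healthy, and Nphs1 at 235 and 70.3. Without podocyte spots 2 were measured and 1 was higher. Of 11 proximal genes 4 were higher and none lower (median 0.91, other spots −0.03), with Slc34a1 at 4092 CPM in PAN_LS-FMD and 1861 in healthy. Both distal convoluted and connecting tubule genes measured were higher, Slc12a3, the thiazide-sensitive salt cotransporter, at 703 and 206 CPM and Calb1, a calcium-binding protein, at 243 and 75.7. Of 9 collecting duct genes 3 were lower and 1 higher (median 0.05), with Aqp3 at 75.0 and 246 CPM. Of 9 injury genes 1 was higher and 2 lower (median 0.06). The injury list summed to 1286 CPM in PAN_LS-FMD and 3348 in healthy, a gap of about the size of that in Spp1. Matrix genes had 1 of 11 higher and 1 lower.

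healthy_LS-FMD member spots, set against healthy member spots, had more osmolyte, collecting duct and Wnt RNA and less podocyte and proximal RNA. Of 7148 genes, 541 (7.57%) were higher and 308 (4.31%) lower, and in the other spots 5.86% were higher and 0.965% lower. Median-of-ratios scaling, a log2 shift of 0.25, gave 230 higher and 508 lower. The median of all genes was 0.26.

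Of 6 osmolyte genes 3 were higher and 1 lower (median 0.98, other spots 0.65). Slc6a12 had 277 CPM in healthy_LS-FMD and 22.8 in healthy (12.1-fold [8.93 to 16.8], 18.7-fold in other spots), Slc38a2, an amino acid transporter that hypertonicity raises, had 734 and 245, and Nfat5 had 432 and 190. Sord was lower, at 123 and 379 CPM. So Sord and Slc6a12 lay on opposite sides, as they did between the member and other spots of healthy_LS-FMD and of healthy. Proximal genes were also lower in this comparison (below), and the part of proximal RNA in the Sord difference was not tested.

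Of 7 thin limb genes 2 were higher and none lower (median 0.75, other spots 0.99), Aqp1 at 5036 CPM in healthy_LS-FMD and 2266 in healthy, and Jag1 at 93.9 and 46.1. With median-of-ratios scaling 0 of 7 were higher, and without podocyte spots, or without the Plet1-only spots, 0 of 6. Of 8 thick limb genes 4 were higher (median 0.77), with Slc12a1 at 2737 and 1308 CPM. Umod, uromodulin of the thick limb, lay the other way at 8226 CPM in healthy_LS-FMD and 11771 in healthy, and the summed list was 12578 and 14317 CPM. Of 9 collecting duct genes 3 were higher (median 0.74, other spots 1.27), with Aqp2 at 1621 and 758 CPM and Aqp4 at 76.2 and 30.6. Of 5 Wnt pathway genes 4 were higher (median 1.13), among them Sfrp1, a secreted Wnt inhibitor (2.92-fold), and Fzd6, a Wnt receptor (2.59-fold). Ptgs1 had 87.7 and 30.1 CPM. The medians of the thin limb, thick limb (0.89), collecting duct and Wnt (1.31) lists were higher still in other spots.

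The genes furthest above healthy also included Slco4a1 (123 and 9.12 CPM, 13.5-fold), Ranbp3l, which encodes a nuclear export factor of SMAD proteins (684 and 69.8), Sim1, a transcription factor (129 and 20.5), and Igfbp5, an IGF-binding protein (3055 and 708, 4.32-fold, 2.30-fold in other spots). Of the 3 red blood cell genes measured all were lower (median −2.95), and all 3 were lower in other spots too (median −2.47). Of 4 podocyte genes 3 were lower (median −2.55, other spots 0.77), with Clic3 at 14.6 CPM in healthy_LS-FMD and 133 in healthy (9.09-fold lower), while in other spots it had 33.8 and 29.0. Without the Plet1-only spots of healthy 2 were measured and 1 was lower (median −0.45). Without podocyte spots the 1 measured was not lower, a readout that is not independent of the filter. All 10 proximal genes were lower (median −1.65, other spots −0.62), with Slc5a2, the glucose transporter SGLT2 of the proximal tubule, at 14.6 and 133 CPM and Gpx3, a secreted glutathione peroxidase of the proximal tubule, at 1683 and 14689. Cxcl9 had 2 UMIs in healthy_LS-FMD and 59 in healthy (12.9-fold lower [3.42 to 109]).

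**Figure D5:**
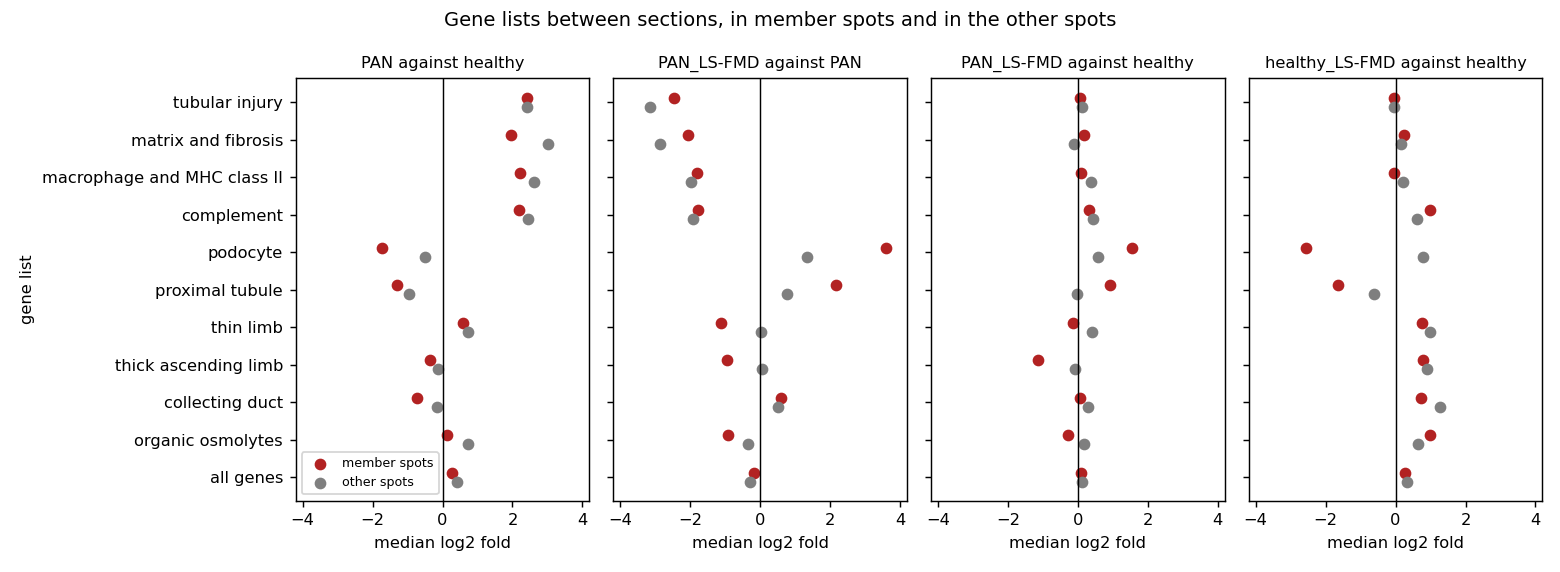
Median log2 fold of each gene list between sections, in member spots (red) and other spots (grey), for the 4 comparisons. Injury and matrix lists lie on the same side in both sets of spots for PAN against healthy and PAN_LS-FMD against PAN, and the podocyte list lies at −2.55 in member spots and 0.77 in other spots for healthy_LS-FMD against healthy.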

How the data were processed

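The deposited matrices hold whole UMI counts per gene and spot, 1 matrix a section, made by the authors with Space Ranger (2.0.1 for healthy, 1.2.1 for the other 3, per the file headers). The build and annotation are not given in the sources used here. Each matrix lists 32402 features. Where a symbol had several identifiers (4090 rows repeat a symbol), lists used the one with most UMIs.

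Spots under 3000 UMIs were left out, and the top 5% by score were kept in each section. UMIs were summed over spots and divided by their total. Intervals are exact 95% Poisson intervals. A gene was measured at 50 UMIs over both sums and counted at 2-fold. Zeros were set to 3 UMIs for folds. No doublet caller was run, and shares of spots were taken after thinning to 3000 UMIs. Nothing was tested between groups, since each had 1 section.

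The members and gene lists (378 of 387 genes are in the files) were chosen with earlier results of these data known. Genes named were the 10 highest and 10 lowest per comparison by the interval bound nearest 1 (15 and 10 by the smallest bound over 4 sections for member against other spots), the 2 to 4 furthest list members, and the thin limb, collecting duct, osmolyte and urothelium genes. Mitochondrial, ribosomal, haemoglobin and unnamed loci were not named. Some genes that the rule or the lists would name are not reported here and were left out of the lists. The genes set out by rank band, and those named from the Plet1-only spots, were chosen after their values were seen. The scripts were tested on simulated counts. Alternatives numbered 16 planned with a value and 3 added later. Python 3.11.15, numpy 2.4.6, scipy 1.17.1, pandas 2.3.3 and matplotlib 3.10.9 were used.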

Additional observations from a re-analysis of the deposited data

Results flagged for a closer look

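Podocyte genes lay on opposite sides of 1 in the member spots of different sections. Nphs1 had member over other spot ratios of 9.06 in PAN_LS-FMD and 4.87 in healthy, against 0.356 in healthy_LS-FMD. Clic3, a chloride channel protein of podocytes, had ratios of 9.22 in PAN_LS-FMD and 4.58 in healthy, against 0.432 in healthy_LS-FMD. The difference between sections was not tested, since each group was 1 section.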

How the results depend on the processing

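No paired analysis was possible because each group was a single section. The main counts were 951 higher and 422 lower for PAN against healthy, 479 and 738 for PAN_LS-FMD against PAN, 285 and 224 for PAN_LS-FMD against healthy, 541 and 308 for healthy_LS-FMD against healthy, and 28 and 10 in member over other spots of all 4 sections. The cause of a move was not tested except where fewer or more genes were counted. With the top 2.5% of spots, PAN against healthy gave 575 higher, PAN_LS-FMD against PAN 360 lower, and healthy_LS-FMD against healthy 320 higher and 163 lower. With the top 10%, they were 1127 lower for PAN_LS-FMD against PAN, 892 higher and 506 lower for healthy_LS-FMD against healthy, and 11 higher and 1 lower in all 4 sections. Ranking without Plet1 gave 10 higher and 1 lower in all 4 sections, and ranking without Slc14a1 or without Wnt7b gave 6 lower. Median-of-ratios scaling gave 518 higher and 785 lower for PAN against healthy, 477 lower for PAN_LS-FMD against PAN, 230 higher and 508 lower for healthy_LS-FMD against healthy, and 17 higher and 27 lower in all 4 sections. The mean of spot CPM gave 5 lower in all 4 sections. Thinning to 3000 UMIs, which leaves fewer genes measured, gave 397 and 279, 304 and 352, 125 and 90, and 287 and 164 in the order of the main counts, and 6 higher in all 4 sections. A minimum of 20 UMIs gave 1470 higher for PAN against healthy, 1265 lower for PAN_LS-FMD against PAN, 459 and 394 for PAN_LS-FMD against healthy, and 822 and 498 for healthy_LS-FMD against healthy. A minimum of 200 UMIs gave 242 and 255, 263 and 198, 100 and 73, 148 and 151, and 8 and 4 in the order of the main counts. No minimum gave 2851 and 780, 956 and 2276, 1040 and 764, 1816 and 818, and 62 higher in all 4 sections. No count over all genes moved by over 1.5 times with collecting duct spots left out, spot minimums of 1000 or 5000 UMIs, totals without haemoglobin and mitochondrial genes, ranking without Slc4a11, or under the 3 settings added after the data were seen (without Plet1-only spots, without spots of 1 selecting UMI, without podocyte spots). Of 1216 list counts 173 moved, and of 2880 values of named genes 471 moved and 1 turned. This was Clic3 in healthy_LS-FMD against healthy, at a log2 fold of 0.071 without podocyte spots and −3.18 with them. Clic3 is itself among the genes that pick podocyte spots, so this turn is not independent of the filter. Such spots were 31 of the 143 member spots of healthy and 1 of the 128 of healthy_LS-FMD. One limit for all sections, 1086.8 CPM, left 4, 0, 128 and 3 spots and gave no value. Depth limits the rarest genes most: a gene at 0 in member spots may have up to 3.84 CPM in PAN and 1.68 in healthy, the exact 95% Poisson limits.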
